A study of Cyprinus carpio with 6 samples.

Results

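Metabotropic glutamate receptors and GABA-B receptors are the G protein-coupled receptors through which glutamate and GABA act slowly on neurons and glia, and their transcripts were followed here in the brain of common carp (Cyprinus carpio) with and without lead. The members were all rows of the deposited gene table whose description holds "metabotropic glutamate receptor" or "gamma-aminobutyric acid type B receptor", and 49 of its 53152 rows met this. Of these, 36 are metabotropic glutamate receptors (mGluR) and 13 are GABA-B receptor subunits. Each row is a gene model and is called a copy below, since carp carries duplicated genes and several models are fragments. Poly(A) RNA of brain came from 2 groups of 3 libraries, a control group whose agent is given as none and a group whose agent is lead, and the title asks about injury of the brain by lead. Dose, duration, age and sex are not in the labels, nor whether each library is a separate fish, so the p-values speak for the spread between these libraries alone, which may be technical. The tissue label is brain although the extraction text mentions adipose, and the neuronal gene snap25 had between 911 and 1339.5 TMM-scaled CPM in the 6 libraries. Total counts were between 27841520 and 34848243 per library, and the 49 copies together held between 18285 and 28393 counts.

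All these receptors belong to class C, in which a large extracellular domain binds the transmitter and the receptor works as a dimer. Group I receptors (mGluR1 and mGluR5) couple to Gq and raise inositol trisphosphate and calcium, mostly on the postsynaptic side. Group II (mGluR2 and mGluR3) and group III (mGluR4, mGluR6, mGluR7 and mGluR8) couple to Gi and Go, lower cyclic AMP and mostly reduce transmitter release. The GABA-B receptor is an obligate pair in which GABA-B1 binds GABA and GABA-B2 couples to Gi and Go, opening potassium channels and closing calcium channels.

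The descriptions named 5 copies of mGluR1, 5 of mGluR5, 3 of mGluR2, 4 of mGluR3, 3 of mGluR4, 3 of mGluR6, 6 of mGluR7, 7 of mGluR8, 9 of GABA-B1 and 4 of GABA-B2. The orthology entries in the table placed every copy in the class its description names. The models ran from 401 to 5062 bp with a median of 2093 bp, and 14 were shorter than 1500 bp. The descriptions marked 13 as partial or of low quality. Of copies named below, LOC109097667, grm5, LOC109108952, LOC109100425, LOC109070607, LOC109103366 and LOC109099263 were marked as of low quality. LOC109066231, LOC109063859, LOC109078332, gabbr2 and LOC109069810 were marked as partial. A RefSeq gene table of a newer carp assembly held 30 of the 49 gene IDs, 26 of them as protein-coding and 4 as pseudogenes. The sources used here do not give how reads were shared among near-identical copies, so values of single copies carry that uncertainty.

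Per length, mGluR2 had the highest summed level of the 10 receptors in control brains and mGluR6 the lowest. Levels are FPKM (fragments per kilobase of transcript, scaled to the library), summed over all copies of a receptor in each library. Fragments of the same gene each add to such a sum. In control libraries the sum was 82.5 ± 3.86 for mGluR2 (SD, n = 3, as for every level here), 59.4 ± 8.93 for mGluR8, 57.6 ± 7.28 for mGluR7 and 45.7 ± 15.3 for mGluR1. The next were GABA-B1 at 36.4 ± 13.2, mGluR3 at 24.3 ± 3.76, GABA-B2 at 17.7 ± 5.23, mGluR5 at 12.7 ± 2.24, mGluR4 at 10.1 ± 2.98 and mGluR6 at 3.59 ± 0.985. The ranges of mGluR8 and mGluR7 overlapped, as did those of mGluR7 and mGluR1, of mGluR1 and GABA-B1 and of GABA-B1 and mGluR3. Those of mGluR3 and GABA-B2, of GABA-B2 and mGluR5 and of mGluR5 and mGluR4 overlapped as well. Within each control library, though, mGluR1 was above GABA-B1, GABA-B1 above mGluR3, GABA-B2 above mGluR5 and mGluR5 above mGluR4. In the other overlapping pairs the order changed between control libraries. The ranges of mGluR2 and mGluR8 were apart, as were those of mGluR4 and mGluR6.

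The summed level was lower in all 3 lead libraries than in all 3 controls for mGluR3, mGluR4, mGluR5 and GABA-B2. For mGluR5, the sum was 13.5, 10.2 and 14.4 FPKM in control (replicates 1, 2 and 3 in order, as in all such lists) and 4.43, 4.14 and 6.13 FPKM in lead, a ratio of lead to control means of 0.386. The sum of mGluR4 was 12.3, 6.73 and 11.4 FPKM in control and 3.80, 3.68 and 5.20 FPKM in lead, a ratio of 0.418. In both receptors every lead library lay below the lowest control library. GABA-B2 had 13.7, 15.7 and 23.6 FPKM in control and 7.06, 5.70 and 11.97 FPKM in lead, a ratio of 0.467. The sum of mGluR3 was 23.1, 28.5 and 21.3 FPKM in control and 18.8, 14.4 and 15.7 FPKM in lead, a ratio of 0.671. The groups of GABA-B1 overlapped at a ratio of 0.526, because lead replicate 3 (28.97 FPKM) was above control replicate 1 (26.5 FPKM). The 4 receptors of highest level had ratios of 0.863 for mGluR2, 1.16 for mGluR8, 0.836 for mGluR7 and 0.767 for mGluR1, and their groups overlapped. On the TMM-scaled CPM scale used for single copies below, the mGluR8 sums were apart with lead higher, at a ratio of 1.27, and the ratios of mGluR2, mGluR7 and mGluR1 were 0.955, 0.971 and 0.888. In bulk tissue, fewer cells of a type and less RNA per cell cannot be told apart.

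**Figure D1:**
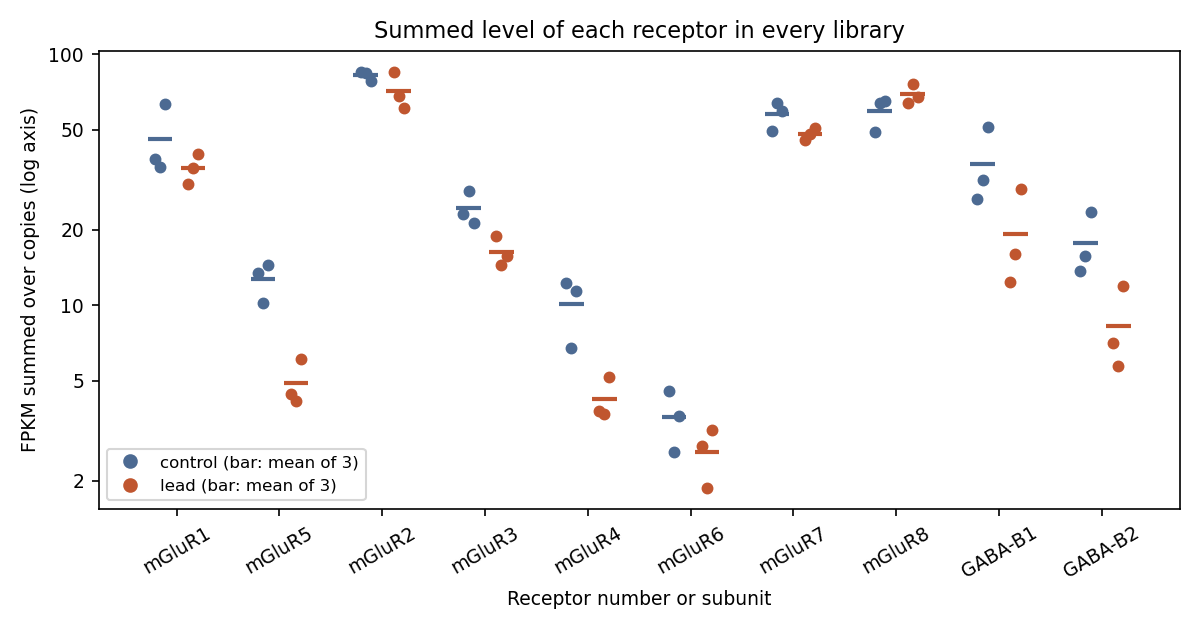
Summed FPKM of each receptor by library, with points for single libraries and bars for the mean of 3 control and 3 lead libraries. The lead libraries lie below every control library for mGluR3, mGluR4, mGluR5 and GABA-B2, and mGluR8 is the receptor whose lead mean (69.1) is above its control mean (59.4).

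No receptor copy passed the test across all genes, but a larger share of copies than of all genes was on the lower side with lead at an unadjusted p under 0.05. Of the 49 copies, 40 reached 1 FPKM in 3 or more libraries and were tested with edgeR's quasi-likelihood test on counts. With Benjamini-Hochberg adjustment over 32149 genes 0 copies were called at 0.05, where 0.0591% of all genes were called, and the lowest adjusted p of a copy was 0.113. Before adjustment, at p under 0.05, 18 copies were lower with lead (45.0%) where 8.77% of all genes were, and 2 were higher where 7.53% of all genes were. The groups did not overlap, with lead lower, in 19 copies (12.6% of all genes) and, with lead higher, in 1 copy (11.9% of all genes). DESeq2 called 5 copies lower at an adjusted p under 0.05, where it called 2.23% of all genes lower, and 0 higher, where it called 1.89% of all genes higher. The log2 fold change of lead over control was below 0 in 31 copies and above 0 in 9, with a median of -0.69 against -0.01 for all genes tested.

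The count of lower copies depended on single libraries, as did the share of all genes. Leaving out control replicate 3 brought it to 8 of 40 copies, where 5.27% of all genes were lower, leaving out lead replicate 2 to 11, where 6.54% were, and leaving out lead replicate 3 to 19, where 9.33% were. The filter also bears on it, since 2 copies reached the FPKM minimum in control libraries only, and these had to be higher in control to be tested (LOC109075517 of mGluR5 and LOC109071653 of mGluR4, described below). Both are also among the 5 copies that DESeq2 called lower. Other lower copies leaned on the control libraries too, each of which was above the minimum for LOC109104301 and LOC109113025. In lead these had 0.772, 1.11 and 0.646 FPKM and 0.678, 0.284 and 1.23 FPKM. Of the 40 tested copies, 29 reached 1 FPKM in all 6 libraries, and 10 of these were lower at an unadjusted p under 0.05. The median log2 fold change of those 29 was -0.40, and the share of all genes lower under that stricter filter was not taken. With no filter, all 49 copies were tested and 19 were lower, where 6.35% of all genes were. The 9 untested copies had a mean FPKM between 0.188 and 1.02, and 8 of them had a lower mean in lead.

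**Figure D2:**
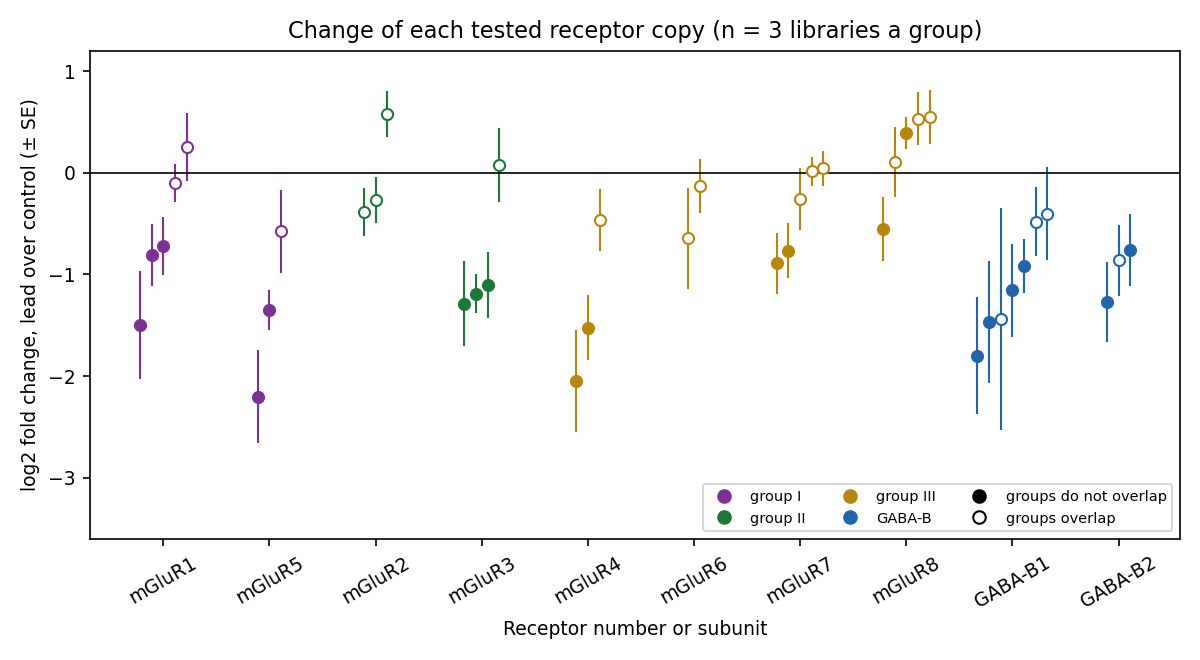
Log2 fold change of lead over control for each of the 40 tested copies, grouped by receptor, with bars of 1 standard error from edgeR. All 10 tested GABA-B copies and all 3 of mGluR4 and of mGluR5 lie below 0, and 4 of the 5 tested copies of mGluR8 lie above it.

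In group I, 5 of 8 tested copies were lower at an unadjusted p under 0.05 (8.77% of all genes) and 0 were higher (7.53% of all genes). The median log2 fold change of the group was -0.77, and was -0.43 without control replicate 3. The copy with the lowest p of all receptors was LOC109097667 of mGluR5, the receptor that is tied to NMDA receptors through homer and shank scaffolds in mammals. It lies on NC_031716.1 from 12363835 to 12386503 on the plus strand. Its level in TMM-scaled CPM (a rate per library, with TMM factors) was 22.7, 17.3 and 21.1 in control and 7.88, 6.99 and 9.13 in lead. The lowest control library was above the highest lead library. The log2 fold change was -1.35 (SE 0.20), with an edgeR adjusted p of 0.113 and a DESeq2 adjusted p of 5.27e-06. The short mGluR5 model LOC109075517 (NW_017540979.1 from 151149 to 156862, minus strand; 991 bp) had 2.46, 2.23 and 2.33 TMM-scaled CPM in control and 0.372, 0.653 and 0.494 in lead. Its log2 fold change was -2.20 (SE 0.46; adjusted p 0.157 in edgeR and 0.00505 in DESeq2), and its groups did not overlap. The remaining tested mGluR5 copy, LOC109063968, overlapped between groups at a log2 fold change of -0.58 (SE 0.41). The copy named grm5 in the table missed the filter, with a mean FPKM of 1.26 ± 0.459 in control and 0.604 ± 0.291 in lead.

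The mGluR1 copies, whose mammalian counterpart is best known from cerebellar Purkinje cells, did not move together. LOC109113026, the copy of highest level, had 57.8, 52.7 and 83.0 TMM-scaled CPM in control and 57.6, 63.2 and 59.7 in lead. Control replicate 3 was the highest library and the other 5 lay close together. Its log2 fold change of -0.10 (SE 0.19) became 0.12 without control replicate 3. LOC109108722 also overlapped between groups, at a log2 fold change of 0.25 (SE 0.34). LOC109066231 had 12.3, 13.6 and 24.3 TMM-scaled CPM in control and 7.75, 9.21 and 11.6 in lead, and LOC109057247 had 12.3, 13.5 and 21.99 in control and 7.98, 8.83 and 12.1 in lead. Their values run nearly in parallel, control replicate 3 was highest in both, and both are pseudogenes in the newer RefSeq table. Their log2 fold changes were -0.81 (SE 0.30) and -0.72 (SE 0.28), with edgeR adjusted p of 0.262 and 0.278, and were -0.44 and -0.42 without control replicate 3.

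The mGluR1 models LOC109113025 and LOC109113026 lie end to end on the plus strand of NC_031735.1, from 9455821 to 9518803 and from 9518813 to 9525121, the second starting 10 bp after the first ends. The upstream model LOC109113025 had 2.79, 2.70 and 3.53 TMM-scaled CPM in control and 1.01, 0.422 and 1.73 in lead, with a log2 fold change of -1.50 (SE 0.53; adjusted p 0.247 in edgeR). The log2 ratio of the upstream to the downstream model was -4.37, -4.29 and -4.56 in control and -5.83, -7.23 and -5.11 in lead. The groups did not overlap, and the difference of -1.65 had an exact two-sided permutation p of 0.1, the smallest that 3 against 3 libraries allow. This ratio was not a planned test, and it restates the fold changes of the 2 models. The same direction was found across the table, in 224 pairs of adjacent tested models on 1 strand with 1 description and less than 1000 bp between them. The upstream model had the lower log2 fold change in 172 of these pairs, with a median difference of -0.33. In 166 of the 224 pairs the upstream model had the lower FPKM, and in the other 58 the median difference was -0.21, with 38 below 0. The median log2 ratio of upstream to downstream level over the pairs was between -0.74 and -0.36 in control libraries and between -1.04 and -0.81 in lead libraries. This shift along adjacent models moved with the groups, and its part in the receptor results was not tested.

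In group II, 3 of 7 copies were lower at an unadjusted p under 0.05 (8.77% of all genes), all of mGluR3. A copy of mGluR2 was the 1 that was higher (7.53% of all genes). The mGluR3 copy LOC109108952 (NC_031731.1 from 12401876 to 12421699, plus strand), which the newer RefSeq table names grm3, had 15.3, 18.5 and 20.1 TMM-scaled CPM in control and 7.44, 7.64 and 8.54 in lead. The lead libraries lay close together and well below the lowest control. The log2 fold change was -1.19 (SE 0.19), with an edgeR adjusted p of 0.121 and a DESeq2 adjusted p of 6.84e-05. LOC109050321 had 4.44, 6.30 and 5.06 TMM-scaled CPM in control and 1.86, 2.38 and 3.08 in lead, a log2 fold change of -1.11 (SE 0.32; adjusted p 0.208 in edgeR). LOC109078332, a pseudogene in the newer RefSeq table, had 3.18, 4.13 and 5.67 in control and 2.40, 1.04 and 1.85 in lead. Its log2 fold change was -1.29 (SE 0.42; adjusted p 0.224 in edgeR). Both sets of groups were apart. The mGluR3 copy of highest level per length, LOC109085406 (819 bp), did not follow the others, with 9.94, 12.5 and 4.60 TMM-scaled CPM in control and 11.7, 8.83 and 7.96 in lead. Control replicate 3 was its lowest library, and its log2 fold change of 0.08 (SE 0.37) was -0.24 without that library and -0.02 when only library totals were used for scaling.

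In rodents mGluR3 is also a receptor of astrocytes, so the astroglial marker list is given beside it. Of 15 tested copies of astroglial markers (gfap, glutamine synthetase, glutamate transporters, brain fatty acid-binding protein, aquaporin-4 and s100b), 7 were lower at an unadjusted p under 0.05 and 0 higher, with a median log2 fold change of -0.65. Of all genes tested, 8.77% were lower and 7.53% higher at that threshold. The fold change was below 0 in 14 of the 15 marker copies. The groups were apart with lead lower in 8, where 12.6% of all genes were. DESeq2 called 6 lower, where it called 2.23% of all genes lower. The summed level of the list was between 4230 and 4960 TMM-scaled CPM in control and between 3840 and 4510 in lead. The 2 astroglial copies of highest FPKM were not among those lower ones. LOC109064295, a brain fatty acid-binding protein, had 878 ± 73.4 TMM-scaled CPM in control and 812 ± 148 in lead, and the s100b copy LOC109096674 had 1093 ± 176 and 1303 ± 211. The part of these cells in the mGluR3 values was not tested.

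The mGluR2 copies went in both directions. The copy of highest FPKM of all receptors, LOC109063859, which the newer RefSeq table names grm2b, had 158.6, 163.2 and 152.0 TMM-scaled CPM in control and 183.5, 102.3 and 107.7 in lead. Lead replicate 1 was above every control library and the other lead libraries were below them. The log2 fold change of this copy was -0.27 (SE 0.23), with an edgeR adjusted p of 0.589. LOC109068852 had 57.3, 70.4 and 57.1 in control and 69.9, 124 and 82.3 in lead, so that the groups overlapped. Its log2 fold change was 0.58 (SE 0.23; adjusted p 0.273 in edgeR), and 0.31 without lead replicate 2. The remaining copy, LOC109063870, had a log2 fold change of -0.39 (SE 0.24).

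Group III had 4 of 15 tested copies lower at an unadjusted p under 0.05 (8.77% of all genes) and 1 higher (7.53% of all genes). Its median log2 fold change was -0.26, and was -0.42 without lead replicate 3 and -0.17 without control replicate 2. The lowest fold changes were those of mGluR4, a presynaptic receptor strongly expressed in cerebellar granule cells of mammals. LOC109100425 (NC_031721.1 from 6225680 to 6241950, minus strand) had 8.15, 4.50 and 7.21 TMM-scaled CPM in control and 2.10, 2.46 and 2.34 in lead. Control replicate 2 was the lowest control library and was still above each lead library. The log2 fold change was -1.52 (SE 0.32), with an edgeR adjusted p of 0.157 and a DESeq2 adjusted p of 0.00455. LOC109071653 (NW_017539876.1 from 256021 to 357713, plus strand) had 5.50, 3.07 and 6.04 in control and 0.913, 0.653 and 1.94 in lead. Its groups were also apart, with a log2 fold change of -2.05 (SE 0.50; adjusted p 0.181 in edgeR and 0.0123 in DESeq2). LOC109095028, the mGluR4 copy of highest FPKM, overlapped between groups at 5.66 ± 1.47 TMM-scaled CPM in control and 4.10 ± 0.661 in lead, a log2 fold change of -0.46 (SE 0.30).

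Among mGluR7 copies, which in mammals mark the active zone of many presynaptic terminals, the fold changes differed. The copies with the most counts, LOC109099699 and LOC109066562, had 59.1 ± 12.5 and 42.7 ± 5.61 TMM-scaled CPM in control and 60.9 ± 2.88 and 43.0 ± 0.182 in lead. Their log2 fold changes were 0.04 (SE 0.17) and 0.01 (SE 0.15), and both were below 0 when only library totals were used for scaling, where all 5 tested mGluR7 copies were. LOC109052713 had 4.89, 7.57 and 5.98 TMM-scaled CPM in control and 3.08, 2.80 and 4.04 in lead, a log2 fold change of -0.89 (SE 0.30; adjusted p 0.232 in edgeR). LOC109075592, a model of 401 bp, had 4.80, 4.99 and 5.55 in control and 2.67, 2.96 and 3.39 in lead, a log2 fold change of -0.77 (SE 0.27; adjusted p 0.246 in edgeR). In both copies the groups did not overlap.

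The tested mGluR8 copies, also presynaptic receptors, were the exception to the general direction, with 4 of 5 above 0 and a median log2 fold change of 0.39. With library totals alone as the scaling, 3 of 5 were above 0 and the median was 0.29. The mGluR8 copies that missed the filter, LOC109105507 and LOC109106424, had lower means in lead. Their TMM-scaled CPM means were 0.706 and 0.178 in control and 0.150 and 0.0451 in lead, and the groups of LOC109105507 were apart. LOC109069810 (NW_017539252.1 from 16727 to 37119, plus strand) had 34.4, 43.5 and 34.3 TMM-scaled CPM in control and 43.8, 52.8 and 50.1 in lead. It was the only receptor copy whose lead libraries were all above its controls, by a small margin, and in FPKM its groups overlapped. Its log2 fold change was 0.39 (SE 0.16; adjusted p 0.289 in edgeR). LOC109060955, the copy of highest level per length (655 bp), had 9.74, 16.7 and 13.04 in control and 16.9, 24.9 and 15.9 in lead. Its groups overlapped, and the log2 fold change was 0.55 (SE 0.27; adjusted p 0.352 in edgeR). LOC109104261 went the other way, with 5.22, 5.397 and 7.42 in control and 2.84, 5.11 and 4.35 in lead, a log2 fold change of -0.55 (SE 0.32; adjusted p 0.423 in edgeR), and its groups were narrowly apart.

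In vertebrate retina mGluR6 is the glutamate receptor of ON bipolar cells, where it closes the trpm1 channel. In whole brain its level was the lowest of the 10 receptors, and neither tested copy was at an unadjusted p under 0.05. LOC109070607 had 4.13, 4.25 and 4.66 TMM-scaled CPM in control and 4.19, 3.46 and 4.23 in lead, with overlapping groups and a log2 fold change of -0.13 (SE 0.27). LOC109045602 had a log2 fold change of -0.65 (SE 0.50). Of 11 tested retina and pineal markers, edgeR called 1 lower, where it called 0.0591% of all genes in either direction. The called copy was LOC109067327, a cone phosphodiesterase subunit named after its values were seen. It had 14.3, 14.7 and 11.3 TMM-scaled CPM in control and 0.677, 0.230 and 0.555 in lead, a log2 fold change of -4.76 (SE 0.41; adjusted p 0.0132 in edgeR, and 1.54e-27 to 0.147 over 15 alternatives, 4 of which did not call it, among them both limma fits and the fit without lead replicate 3). It reached the FPKM minimum in control libraries only. A further marker had an unadjusted p under 0.05 on the higher side, the trpm1 copy LOC109101214, with 44.5 ± 7.14 TMM-scaled CPM in control and 66.5 ± 10.97 in lead (edgeR adjusted p 0.220). Another cone phosphodiesterase copy, the gamma subunit LOC109095158, had 7.25 ± 2.59 in control and 9.38 ± 6.47 in lead. Its groups overlapped, at a log2 fold change of 0.37 (SE 0.51). Of the 11 tested markers, 6 were below 0 and 5 above, with a median log2 fold change of -0.08. The summed level of the list was between 133 and 175 TMM-scaled CPM in control and between 133 and 191 in lead, and its part in the mGluR6 values was not tested.

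All 10 tested GABA-B copies had a log2 fold change below 0, and 6 of them were at an unadjusted p under 0.05 (8.77% of all genes on the lower side). Their median of -1.04 depended on single libraries, with -0.74 without control replicate 3 and -1.48 without lead replicate 3. None of the 10 was called by edgeR, where the lowest adjusted p was 0.209, or by DESeq2. LOC109063460 of GABA-B1, the subunit that binds GABA, had 13.3, 12.3 and 19.8 TMM-scaled CPM in control and 8.25, 6.14 and 9.65 in lead. Every lead library was below every control. Its log2 fold change was -0.91 (SE 0.27; adjusted p 0.209 in edgeR and 0.0630 in DESeq2). LOC109104301 (664 bp) had 1.03, 2.08 and 3.10 in control and 0.541, 0.806 and 0.432 in lead, a log2 fold change of -1.80 (SE 0.58; adjusted p 0.222 in edgeR). LOC109103366 had 6.53, 5.89 and 8.16 in control and 1.29, 3.11 and 4.81 in lead, a log2 fold change of -1.16 (SE 0.46; adjusted p 0.280 in edgeR). The groups of these copies were apart. LOC109099263 had 5.50, 7.20 and 18.0 in control and 1.42, 4.84 and 4.81 in lead, a log2 fold change of -1.47 (SE 0.60; adjusted p 0.296 in edgeR). Its control replicate 3 stood far above the others. LOC109095706, the GABA-B1 copy of highest level, had 15.3, 19.4 and 23.9 in control and 9.27, 10.9 and 21.7 in lead. Lead replicate 3 lay among the controls, and the log2 fold change was -0.48 (SE 0.34; adjusted p 0.517 in edgeR).

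For GABA-B2, the subunit that carries the G protein coupling, the copy named gabbr2 had 5.95, 6.67 and 11.96 TMM-scaled CPM in control and 2.67, 2.57 and 4.90 in lead. Its groups were apart, with a log2 fold change of -1.27 (SE 0.40; adjusted p 0.216 in edgeR and 0.0712 in DESeq2). LOC109112229 had 4.33, 5.77 and 6.93 in control and 3.65, 2.11 and 4.29 in lead, a log2 fold change of -0.76 (SE 0.36; adjusted p 0.337 in edgeR). Its groups were apart by a narrow margin. LOC109088473, the GABA-B2 copy of highest level, had 11.9, 15.1 and 18.2 in control and 6.19, 5.68 and 12.98 in lead. Lead replicate 3 was again the highest lead library and reached above the lowest control, and the log2 fold change was -0.86 (SE 0.35; adjusted p 0.287 in edgeR). The ratio of summed GABA-B1 to summed GABA-B2 FPKM was 1.93, 2.002 and 2.18 in control and 1.76, 2.81 and 2.42 in lead. The groups overlapped, and the difference of 0.17 on the log2 scale had an exact two-sided permutation p of 0.5, where the smallest possible is 0.1. The difference was 0.36 without lead replicate 1, with an exact p of 0.1, and 0.02 without lead replicate 2, with an exact p of 0.9.

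**Figure D3:**
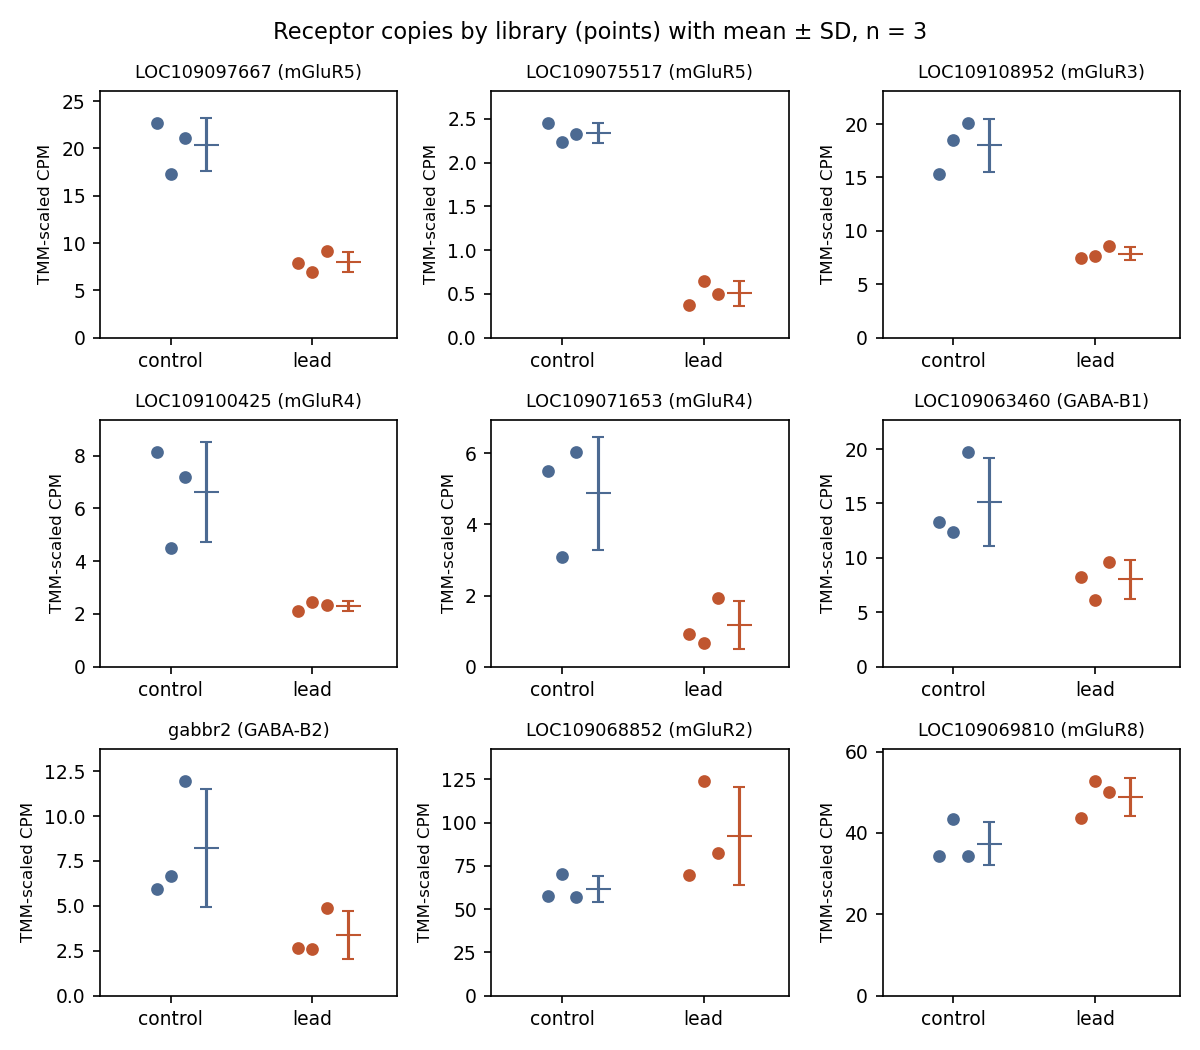
TMM-scaled CPM by library for 9 named receptor copies, with points for the 3 control and 3 lead libraries and the mean and SD beside them. The 2 groups are apart in 8 panels and overlap in that of LOC109068852 (mGluR2), and LOC109069810 (mGluR8) is the panel with all lead libraries above control.

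Copies of low level had lower log2 fold changes than copies of high level. Of 15 copies with a mean FPKM under 3, 8 were lower at an unadjusted p under 0.05 and the median log2 fold change was -1.11, where all genes at that level had a median of -0.24 and 10.1% lower. At a mean FPKM of 3 to 10 the corresponding values were 9 of 15 copies and a median of -0.81, against -0.05 and 9.97% for all genes. Above 10 FPKM, 1 of 10 copies was lower and 2 were higher, with a median of 0.03 against 0.14 for all genes. The filter bears on the count under 3 FPKM, where LOC109075517 and LOC109071653 reached the FPKM minimum in control libraries only. The lower copies LOC109104301, LOC109113025, LOC109103366 and LOC109052713 of that range were under 1 FPKM in at least 1 lead library. Spearman's rank correlation of mean FPKM with log2 fold change was 0.65 over the 40 copies and 0.28 over all 32149 genes tested, as a description, since all points share the same libraries. Within a receptor the models could differ widely, as in mGluR1, whose lowest and highest log2 fold changes were 1.76 apart. The lowest was that of LOC109113025, which ends 10 bp before LOC109113026 on the same strand. The newer RefSeq table names LOC109113025 grm1a and does not hold the gene ID of LOC109113026. Whether these adjacent models are pieces of 1 gene was not tested. The part of level, and of reads shared among copies, in the differences between copies was not tested.

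**Figure D4:**
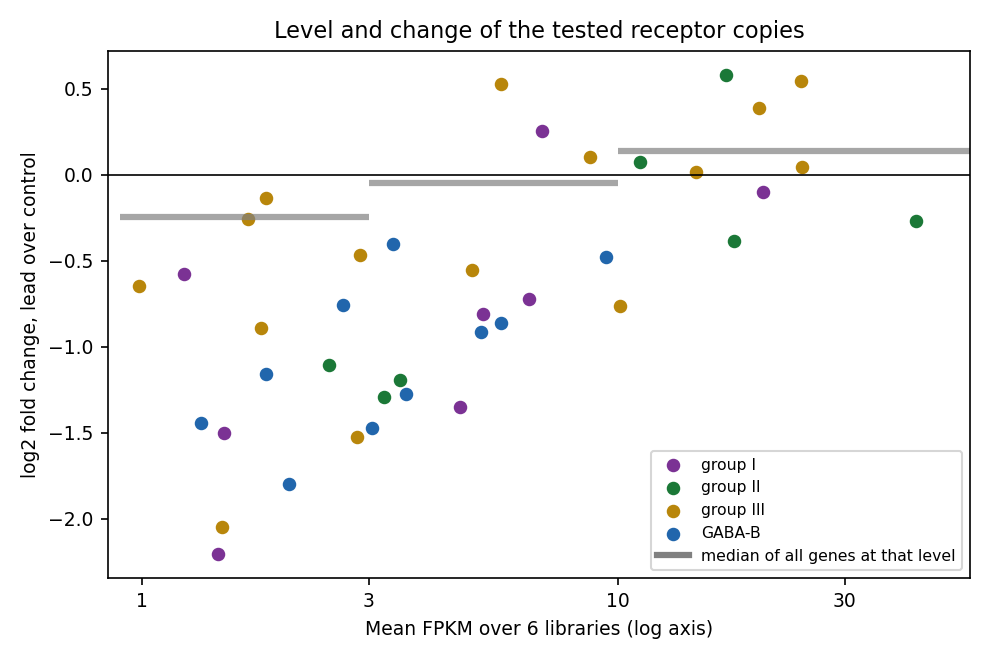
Log2 fold change of lead over control against mean FPKM (log axis) for the 40 tested copies, coloured by class, with lines for the median of all genes tested in each of 3 level ranges. Copies under 10 FPKM lie mostly below these medians, and the 10 copies above 10 FPKM have a median of 0.03.

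The genes that act with these receptors were read in 14 lists, which held 291 copies, of which 207 were tested. EdgeR called 0 of them, where it called 0.0591% of all genes. DESeq2 called 14 lower and 1 higher, where it called 2.23% of all genes lower and 1.89% higher. In edgeR, 35 (16.9%) had an unadjusted p under 0.05 on the lower side, where 8.77% of all genes had. On the higher side there were 8, where 7.53% of all genes were. The counts for each list below use that threshold and stand beside these shares. In which libraries the partner copies reached the FPKM minimum was not checked, and low copies may have been tested through the control libraries. The median log2 fold change of the 207 tested copies was -0.21. Of Gi and Go alpha subunits, the direct partners of groups II and III and of GABA-B, 5 of 18 were lower and 1 higher. LOC109063580, a Gi alpha-1 copy, had 7.31 ± 1.48 TMM-scaled CPM in control and 3.53 ± 0.831 in lead, while LOC109093170, a Go alpha copy, had 44.8 ± 7.09 and 64.6 ± 2.80. Of the Gq and G11 alpha subunits that serve group I, 0 of 5 were at an unadjusted p under 0.05. All 5 were below 0, where 16322 of the 32149 genes tested were, with a median log2 fold change of -0.51. In 2 of them the groups were apart with lead lower, where 12.6% of all genes were. Of beta and gamma subunits, 4 of 35 were lower and 2 higher, among the latter the gamma-3 copy LOC109077301 with 188.6 ± 27.1 in control and 259.7 ± 22.2 in lead. Among the lower ones, the beta-4 copy LOC109090021 had 15.5 ± 1.99 in control and 10.4 ± 2.02 in lead.

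Among effectors, 4 of 13 copies of GIRK channels, the potassium channels that GABA-B receptors open, were lower and 1 was higher, with a median of -0.85. The summed level of that list was between 125 and 144 TMM-scaled CPM in control and between 110 and 124 in lead. The GIRK3 copies LOC109073119 and LOC109051692 had 14.7 ± 2.55 and 15.1 ± 0.587 TMM-scaled CPM in control and 6.99 ± 1.58 and 5.43 ± 2.72 in lead, and DESeq2 called both lower (adjusted p 0.0100 and 0.00985). Of adenylate cyclases, which make cyclic AMP, 5 of 26 were lower and 0 higher, and the list summed to 297 to 353 in control and 261 to 293 in lead. The type 2 copy LOC109091999 had 3.88 ± 1.18 in control and 0.984 ± 0.236 in lead (DESeq2 adjusted p 0.00475). Of phospholipase C beta copies, the enzymes downstream of Gq, 0 of 9 were at an unadjusted p under 0.05. Inositol trisphosphate receptors, the calcium channels of the endoplasmic reticulum, had 1 of 5 lower and 1 higher. Conventional protein kinase C, which calcium and diacylglycerol activate, had 3 of 9 lower and 0 higher, and summed to 327 to 383 in control and 291 to 324 in lead. Its beta copy LOC109052512 had 22.9 ± 6.85 in control and 6.37 ± 2.87 in lead (DESeq2 adjusted p 0.000860).

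Of homer and shank scaffolds, which anchor group I receptors at the synapse, 4 of 22 were lower and 0 higher. The list summed to 427 to 483 TMM-scaled CPM in control and 360 to 436 in lead, with overlapping groups. The homer3 copies LOC109090415 and LOC109050007 had 3.80 ± 2.03 and 18.2 ± 9.08 TMM-scaled CPM in control and 0.703 ± 0.318 and 5.17 ± 2.89 in lead, with log2 fold changes of -2.43 (SE 0.56) and -1.82 (SE 0.50). RGS proteins, which end G protein signals, had 2 of 37 lower and 3 higher, and the RGS7 copy LOC109061753, at 72.6 ± 11.1 in control and 123 ± 18.7 in lead, was the 1 partner that DESeq2 called higher (adjusted p 0.00759). G protein-coupled receptor kinases, which desensitise receptors, had 2 of 9 lower, KCTD auxiliary subunits of the GABA-B receptor 2 of 8, and orphan receptors of class C 3 of 10. The single tested copy of elfn, an adhesion partner of group III receptors in mammals, had a log2 fold change of -0.71 (LOC109060324; SE 0.32).

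**Figure D5:**
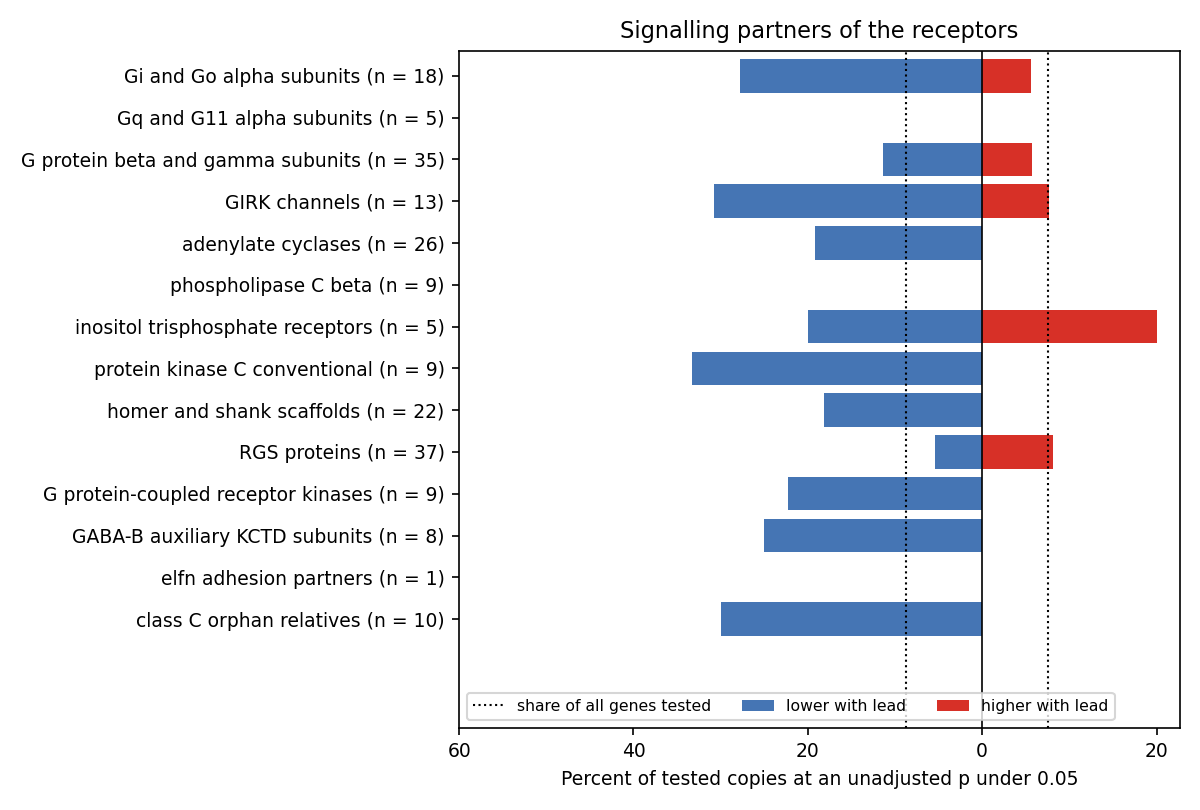
Percent of tested copies in each list of signalling partners at an unadjusted p under 0.05 in edgeR, lower with lead to the left of 0 and higher to the right, with dotted lines for the share of all genes (8.77% lower, 7.53% higher). RGS proteins lie near the dotted lines on both sides, and GIRK channels and conventional protein kinase C reach over 30% on the lower side.

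Markers of the cells that carry the receptors were read the same way. At an unadjusted p under 0.05, 8.77% of all genes were lower and 7.53% higher, and the counts below stand beside these shares. Of 27 tested neuronal copies 8 were lower at an unadjusted p under 0.05, with a median log2 fold change of -0.17 and a summed level of 3860 to 5290 TMM-scaled CPM in control and 4040 to 4590 in lead. The neuronal copy snap25 had 1131 ± 211 in control and 1085 ± 170 in lead. Of oligodendrocyte markers 5 of 22 and of microglial markers 3 of 8 were lower, with summed levels of 3390 to 6730 and 67.6 to 128 in control and of 3660 to 4070 and 51.0 to 71.1 in lead. Blood markers had 1 of 10 lower and 1 higher. All 10 pituitary markers together summed to at most 9.57 TMM-scaled CPM in a library, and 1 of them was tested. This copy, a prolactin, had 1.18 ± 1.04 in control and 0.486 ± 0.842 in lead. Copies at 0 in every library numbered 1 of 30 neuronal, 1 of 23 astroglial, 3 of 42 oligodendrocyte, 1 of 13 microglial, 2 of 36 retina and pineal, 1 of 10 pituitary and 1 of 19 blood markers. The part of these cells in the receptor values was not tested.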

How the data were processed

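Per the file headers, the authors deposited, for each gene and library, a count of reads or fragments, which are whole numbers, and an FPKM value. Bowtie 0.12.2, HISAT2 2.0, StringTie 1.3.0 and the mouse build mm8 are listed, with no roles, by the submitters' processing notes. The table itself uses carp RefSeq sequence names, the sources used here give no assembly for them, and its positions are printed unaltered. Nor do these sources give how reads on several copies or on either strand were counted.

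Counts were fitted with edgeR 4.0.16 in R 4.3.3 (TMM scaling, robust quasi-likelihood test, lead against control, 3 libraries each) on the 32149 genes that reached 1 FPKM in 3 or more libraries, and p-values were adjusted by Benjamini-Hochberg over all of them. The biological coefficient of variation was 36.6%, and total counts of 27841520 to 34848243 per library set the precision of low copies. The steps were tested on simulated data. Model length was taken from count and FPKM. Copies named are those at an unadjusted p under 0.05, with groups that do not overlap, of highest mean FPKM in a receptor, or called by any fit; a few other copies are given beside them, chosen after their values were seen. Of each partner list the 2 tested copies of smallest p, and of each marker list the 2 of highest FPKM, could be named. Lists were made from descriptions, and entries of another kind were taken out by description. Members and lists were chosen with earlier results of these data known. Alternatives were DESeq2 1.42.0, limma 3.58.1 on log2(FPKM + 1) and log2(FPKM + 0.1), other filters and scalings, the replicate number as a block, leaving out each library and, chosen after seeing the data, removal of a length trend. The comparisons of adjacent models were not planned either. No sequences were used here.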

Additional observations from a re-analysis of the deposited data

How the results depend on the processing

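The number of receptor copies called was 0 in every fit but DESeq2, which called 5, and the signalling partners called were 0 in every fit but DESeq2, which called 15. Copies lower at an unadjusted p under 0.05 (18) ranged from 8 (without control replicate 3) to 19 when 1 library was left out, with 11 without lead replicate 2. Copies higher (2) came to 0 with library totals alone, 0 in each limma fit, and ranged from 0 to 3 with 1 library left out. The median log2 fold change of the copies ranged from -0.96 (without lead replicate 3) to -0.48 (without control replicate 3). Library totals alone moved the median of all genes from -0.01 to -0.11, and limma on log2(FPKM + 0.1) moved it to -0.11; the copies' median less that of all genes was -0.68 with TMM, -0.67 with library totals, -0.62 with that limma fit, -0.51 with limma on log2(FPKM + 1), -0.47 without control replicate 3 and -0.94 without lead replicate 3. Of 450 refits of the 30 named copies, 437 kept direction and side of the threshold, 5 passed it (all by DESeq2) and 8 turned direction. LOC109099699 turned to -0.058 with library totals, -0.040 with limma on log2(FPKM + 1), -0.041 with limma on log2(FPKM + 0.1) and, with 1 library left out, ranged from -0.088 (without control replicate 1) to 0.218. LOC109085406 turned to -0.022 with library totals, and ranged from -0.24 (without control replicate 3, and -0.097 without lead replicate 1) to 0.383 with 1 library left out. LOC109113026 ranged from -0.226 to 0.123, the latter without control replicate 3. The cause was not tested. Same-numbered control and lead libraries deviated from their group means with correlations of 0.13, 0.03 and 0.08. For libraries of different number the correlations were between -0.123 and 0.045. These small values do not settle whether replicate numbers pair the libraries. With the replicate block, 0 copies were called, the counts at an unadjusted p under 0.05 were 20 lower and 3 higher, and the median was -0.67. Across all genes, 19 were called with TMM, 1 with the block, 4 without lead replicate 2, 30 with no filter and 1324 with DESeq2. Low copies rest on few counts, and the 9 untested ones had a mean FPKM of at most 1.02.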

Other observations

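Within the metabotropic glutamate receptors, group III took 44.1 ± 2.22% of the summed FPKM in control (n = 3) and 49.3 ± 3.24% in lead. Group I took 19.6 ± 4.60% and 15.9 ± 2.41%, and group II 36.3 ± 4.30% and 34.8 ± 5.28%, with overlapping groups in each class. The sum over all 36 metabotropic glutamate receptor copies was 275.5, 295.3 and 316.9 FPKM in control replicates 1, 2 and 3 and 254.6, 250.8 and 249.2 FPKM in lead replicates 1, 2 and 3. All lead libraries were below the controls on that scale, at a ratio of 0.850, and the groups overlapped in TMM-scaled CPM at a ratio of 0.919. The 13 GABA-B copies summed to 40.2, 47.0 and 74.9 FPKM in control and 19.5, 21.7 and 40.9 FPKM in lead, where lead replicate 3 reached above control replicate 1.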
